A study of Mus musculus with 8 samples.

Results

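Otx2, Pou3f1, Zic2, Zic1, Sox1, Sox3, Pax6, Gbx2 and Nes, a set of 9 genes tied to formative pluripotency and neuroectoderm, were followed through 8 RNA-seq libraries of mouse pluripotent stem cells and mesoderm progenitors. The genes were chosen by name and matched to Ensembl identifiers through the GENCODE vM1 symbols. Of the 9, 8 were matched to an identifier among the 37620 genes of the deposited counts, of which 37205 had a symbol in that annotation. Of the members, 7 had at least 10 counts in at least 2 libraries and entered the tests. Sox1 was not matched, and the genes without a symbol were not searched for it. Pou3f1 had almost no counts. Nes encodes nestin, an intermediate filament protein, and the other members encode transcription factors.

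All but 1 of the libraries came from the R1 line of mouse embryonic stem cells (mESC). The other was made from cells sorted as positive for green fluorescent protein (GFP) in a line where GFP reports Cdx2. The mESC were kept in serum without feeder cells. The 2i library was taken on day 5 with CHIR99021 (3 µM), an inhibitor of GSK3, and PD0325901 (1 µM), an inhibitor of MEK. The 2iJ library, also of day 5, had a JAK inhibitor (2 µM) in addition. The 2iJ+B-A libraries of days 2, 5 and 11 had BMP4 (10 ng/ml) and ALK5 inhibitor II (10 µM) on top of 2iJ, and the Cdx2-GFP sorted cells had the same additions for 2 days. Mesoderm progenitors of days 3 and 4 were made from R1 embryoid bodies in a medium for which the study names no serum, with BMP4, Activin A and Wnt3a, and the methods of the study describe collection before, or a day after, addition of the Wnt secretion inhibitor IWP-2. Each condition and day was a single library, so no library had a true replicate and the spread within a group holds its change over days.

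Cells that leave naive pluripotency pass through a formative state before they choose a germ layer. OTX2 drives that exit together with OCT4 and the POU factor OCT6, encoded by Pou3f1, and ZIC2 takes part in it at enhancers. SOX1, SOX3 and PAX6 are known from the neural plate and neural progenitors, GBX2 patterns the boundary of midbrain and hindbrain opposite OTX2 and is also a target of LIF and STAT3 signalling in mESC, ZIC1 acts in the dorsal neural tube, and nestin is a marker of neural progenitors that many mESC and mesodermal cells also make.

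Neither Pou3f1 nor Sox1, which were not measured here, was shown to be silent. Pou3f1 (ENSMUSG00000078236, NCBIM37 chromosome 4, 124334896 to 124337899, plus strand, 1 exon) lies under a second model of the same symbol, a pseudogene (ENSMUSG00000090125), on the same strand. The pseudogene model has an exon from 124334889 to 124336203 and another from 124336205 to 124337899, so it shares 3003 of the 3004 exon bases of Pou3f1. The base left to Pou3f1 alone is 124336204, in its coding sequence. It is shown in capitals in the plus strand sequence of chr4:124336174-124336234, to show how small the part unique to the gene is.
Pou3f1 coding sequence: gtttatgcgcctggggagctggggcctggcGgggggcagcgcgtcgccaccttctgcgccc
Pairs that overlap both models are counted as ambiguous by the counting mode of STAR and go to neither. Pou3f1 had 1 count in the mesoderm progenitors on day 4, 1 count in 2iJ+B-A on day 5 and 0 in the other 6 libraries, and the pseudogene model had 0 in all 8. The level of Pou3f1 is therefore not known from these counts.

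Sox1, which marks the earliest neural plate, has no gene in the GENCODE vM1 annotation. The promoter window that RefSeq gives for it on GRCm38.p6 was sought on the plus strand of NCBIM37 chromosome 8 alone and had 1 exact match there. The match placed its start site at chromosome 8, 12395519, plus strand. That base lies in an intron of Gm5607 (ENSMUSG00000047935), between an exon that ends at 12386030 and one that starts at 12424881. The 250 bases before the start site, chr8:12395269-12395519 with the start site itself in capitals, are shown because they are the piece of Sox1 that ties the unmeasured gene to the genome of the files.
Sox1 upstream sequence: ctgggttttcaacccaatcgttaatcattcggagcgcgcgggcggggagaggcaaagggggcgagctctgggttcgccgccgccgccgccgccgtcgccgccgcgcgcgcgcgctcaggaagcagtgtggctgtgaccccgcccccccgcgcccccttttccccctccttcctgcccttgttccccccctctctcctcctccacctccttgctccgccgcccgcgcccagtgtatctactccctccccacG
These bases were 71.2% G or C and held 29 CpG, against a median of 52.4% G or C over the 32851 promoters of the same RefSeq table. A miRNA gene of 86 bases, AC102525.1 (ENSMUSG00000092656, 12396403 to 12396488, plus strand), starts 884 bases after that start site. It had between 0 and 3 counts in each library, 10 in all, and Gm5607 had between 0 and 9. Neither count is a measure of Sox1.

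Depth and sample identity bear on every value below. Sense-strand counts per library were between 19810855 and 31453888. The sorted library had the fewest, and 29.7% of its read pairs were unmapped against between 2.17% and 3.85% in the others. A count of 0 allows a level of up to 3 counts, which is between 0.0954 and 0.151 CPM (counts scaled to the library total of sense-strand gene counts, times 1e6). The naive pluripotency list (8 genes) summed to between 2109 and 3495 CPM in the mESC and sorted libraries and to 271 and 149 CPM in the mesoderm progenitors. The primitive streak and mesoderm list (7 genes) summed to 1573 and 583 CPM in the mesoderm progenitors on days 3 and 4 and to between 11.5 and 59.0 CPM elsewhere.

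Otx2 (ENSMUSG00000021848, chromosome 14, 49277354 to 49287319, minus strand) was among the steadier members in mESC. Its level was 56.0 CPM in 2i, 75.4 CPM in 2iJ, and 41.6, 38.3 and 74.8 CPM in 2iJ+B-A on days 2, 5 and 11. It was 38.7 CPM in the sorted cells, and 48.2 and 8.21 CPM in the mesoderm progenitors on days 3 and 4. The mesoderm library of day 4 was the low one, and the day 3 library lay within the range of 2iJ+B-A.

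Zic2 (ENSMUSG00000061524, chromosome 14, 122874604 to 122879074, plus strand), a zinc finger factor, had a wider range than Otx2 or Nes. Its level was 68.4 CPM in 2i, 99.0 CPM in 2iJ, and 41.2, 60.1 and 68.0 CPM in 2iJ+B-A on days 2, 5 and 11. It was 7.27 CPM in the sorted cells, and 233 and 27.6 CPM in the mesoderm progenitors on days 3 and 4. The highest and lowest libraries differed 32.0-fold. All 3 of the 2iJ+B-A libraries were below both 2i and 2iJ, but that of day 11 was below 2i by less than the counting error.

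Nes (ENSMUSG00000004891, chromosome 3, 87775000 to 87784373, plus strand) was at 38.7 CPM in 2i and 49.0 CPM in 2iJ, and at 44.4, 32.0 and 27.0 CPM in 2iJ+B-A on days 2, 5 and 11. It was at 21.3 CPM in the sorted cells, and at 201 and 22.9 CPM in the mesoderm progenitors on days 3 and 4. Only the mesoderm library of day 3 stood far from the other 7, which lay between 21.3 and 49.0 CPM.

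Gbx2 (ENSMUSG00000034486, chromosome 1, 91824537 to 91829865, minus strand) was low in all but 1 library. It had 42 counts in 2i, 33 in 2iJ, and 12, 56 and 53 in 2iJ+B-A on days 2, 5 and 11, which were 1.49, 1.28, 0.489, 1.78 and 1.73 CPM. The sorted cells had 53 counts (2.68 CPM), and the mesoderm progenitors 613 on day 3 (19.5 CPM) and 19 on day 4 (0.614 CPM). The mesoderm library of day 3 was the high one, and that of day 4 lay within the range of 2iJ+B-A.

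Sox3 (ENSMUSG00000045179, chromosome X, 58144545 to 58146605, minus strand), a SoxB1 factor of pluripotent and neural cells, had 96 counts in 2i, 92 in 2iJ, and 19, 47 and 42 in 2iJ+B-A on days 2, 5 and 11. These were 3.41, 3.58, 0.774, 1.49 and 1.37 CPM. The mesoderm progenitors had 118 and 38 counts, or 3.75 and 1.23 CPM, and the sorted cells had 0, which allows up to 0.151 CPM. Each 2iJ+B-A library was below both 2i and 2iJ, with no overlap of their 95% Wilson intervals.

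Pax6 (ENSMUSG00000027168, chromosome 2, 105509053 to 105543317, plus strand), a paired-box factor of eye and forebrain, was at 0.782 CPM in 2i, 2.26 CPM in 2iJ, and 1.14, 1.11 and 2.25 CPM in 2iJ+B-A on days 2, 5 and 11. The sorted cells were at 0.757 CPM. The mesoderm progenitors had 1 count on day 3 and 74 on day 4, or 0.0318 and 2.39 CPM, which were the lowest and the highest of the 8 libraries.

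Zic1 (ENSMUSG00000032368, chromosome 9, 91252896 to 91260648, minus strand) had at most 19 counts in any library. It had 1 count in 2i, 2 in 2iJ, 0, 7 and 16 in 2iJ+B-A on days 2, 5 and 11, 19 in the sorted cells, and 12 and 0 in the mesoderm progenitors. The highest of these was 0.959 CPM.

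**Figure D1:**
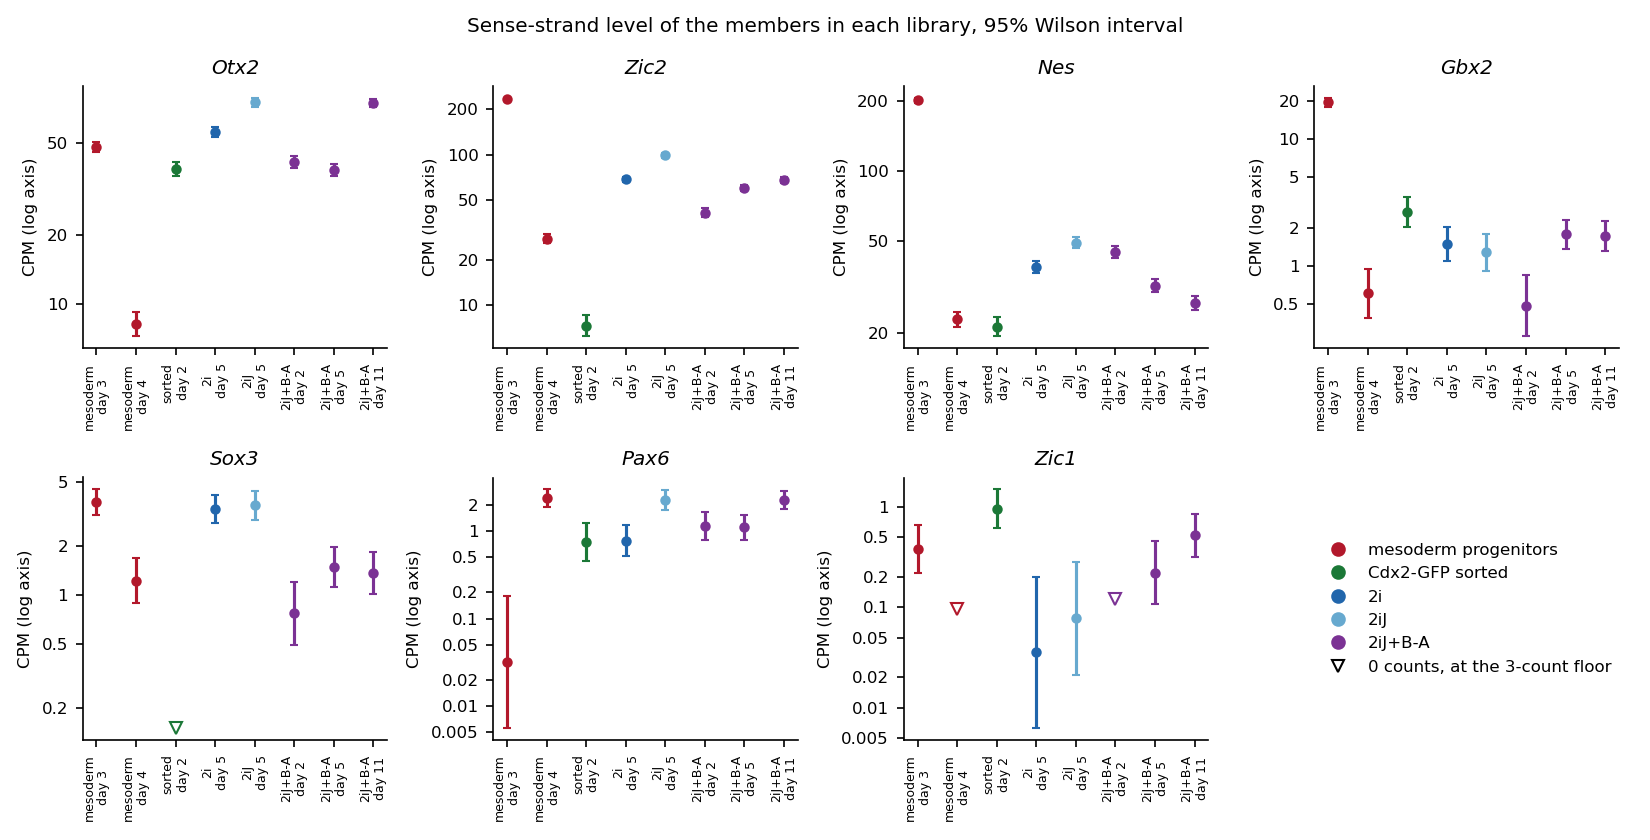
Level of the 7 tested members in each of the 8 libraries, in CPM on a log axis, with 95% Wilson intervals for counting error only; open triangles mark 0 counts at the level of 3 counts. The mesoderm library of day 3 was at 233 CPM for Zic2, 201 CPM for Nes and 19.5 CPM for Gbx2, above every other library.

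Between genes, levels were compared per kilobase of exon. Zic2 led the members in 4 libraries, at 55.6 and 6.60 CPM per kilobase in the mesoderm progenitors on days 3 and 4, 23.6 in 2iJ and 14.4 in 2iJ+B-A on day 5. Otx2 led in the other 4, at 11.4 CPM per kilobase in the sorted cells, 16.5 in 2i, and 12.3 and 22.0 in 2iJ+B-A on days 2 and 11. In 2i the lead of Otx2 over Zic2, at 16.3 CPM per kilobase, was within counting error. Sox3, Gbx2, Pax6 and Zic1 were between 0 and 1.82 CPM per kilobase in every library, apart from Gbx2 at 4.60 in the mesoderm progenitors on day 3.

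**Figure D2:**
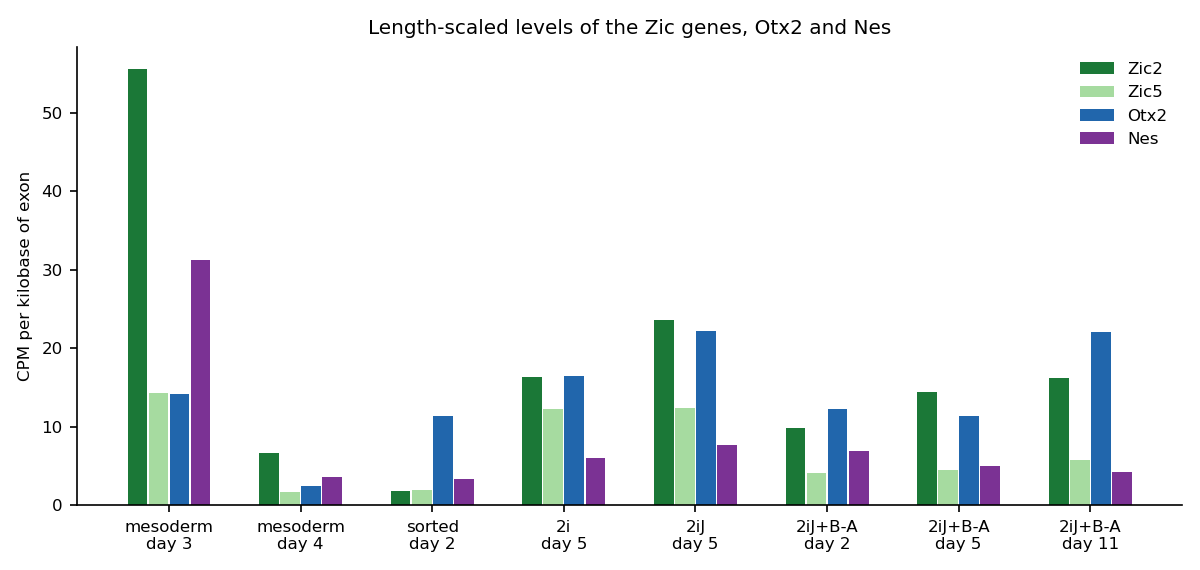
CPM per kilobase of exon of Zic2, Zic5, Otx2 and Nes in each library (bars, 1 library each, no error). Zic2 was at 55.6 in the mesoderm progenitors on day 3 and at 1.74 in the sorted cells, where Otx2 was at 11.4.

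The step from day 3 to day 4 in the mesoderm progenitors was the widest difference of the set. With 1 library on each side there was no test, and intervals cover counting error only. Nes was 8.77-fold lower on day 4 (95% interval 8.11 to 9.49), Zic2 8.43-fold lower (7.85 to 9.06) and Otx2 5.87-fold lower (5.14 to 6.73). Gbx2 was 31.8-fold lower (20.2 to 53.1) and Sox3 3.06-fold lower (2.10 to 4.53). Pax6 went the other way, 75.2-fold higher (13.1 to 3009), a ratio that rests on 1 count on day 3. Of the 6 members with at least 1 CPM in the higher library, 5 were at least 2-fold lower on day 4 and 1 was at least 2-fold higher, where 10.5% of 13403 genes were lower and 9.39% higher. Zic1, below that level, went from 12 counts to 0 and was 3.94-fold lower against the floor of 3 counts (lower limit of the 95% interval 2.7-fold). In bulk RNA, fewer cells with a transcript and less transcript per cell cannot be told apart, and day cannot be told apart from the added inhibitor.

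Other formative genes were lower on day 4 as well. Of the 15 genes on the formative and primed epiblast list, 14 had at least 1 CPM, 10 were at least 2-fold lower and 0 at least 2-fold higher, with a median log2 ratio of -2.09 against 0.01 over all 13403 genes. Wnt8a, a Wnt ligand, was at 47.7 CPM on day 3 and 0.549 CPM on day 4. Fgf5, the usual marker of the primed epiblast, was at 38.8 and 0.937 CPM, and Pim2, a kinase, at 251 and 18.1 CPM. The neural plate and neural progenitor list had a median log2 ratio of -0.06 over the 7 of its 20 genes with at least 1 CPM, of which 3 were at least 2-fold lower and 1 at least 2-fold higher. Its widest ratios among genes reaching 10 CPM were those of Zfp521 (16.6 and 40.5 CPM), Irx3 (19.9 and 37.5 CPM) and Msi1 (55.6 and 57.1 CPM). The 3 lower genes did not reach 10 CPM, Fabp7 (9.95 and 0.904 CPM) among them. Most of the streak and mesoderm list moved with the members, with 5 of its 7 genes at least 2-fold lower on day 4 and 1 at least 2-fold higher. The part of that list in these ratios was not tested.

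**Figure D3:**
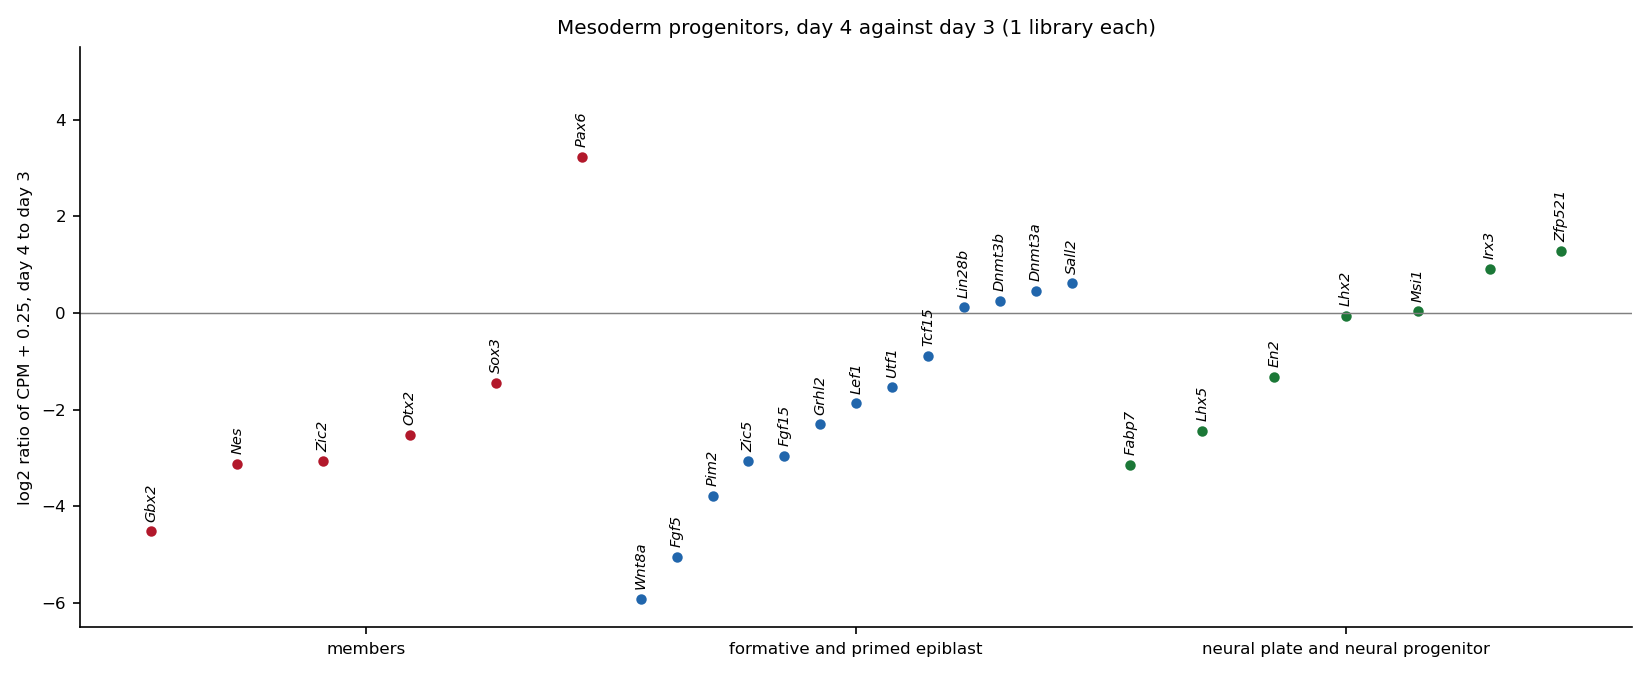
Log2 ratio of CPM + 0.25 between the mesoderm libraries of day 4 and day 3 for members and list genes with at least 1 CPM in either (points, 1 library each, no error). Of the 6 members, 5 lay below the line at 0 and Pax6 lay above it; Wnt8a, Fgf5 and Pim2 were the lowest of the formative genes drawn.

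The comparison of mesoderm progenitors with 2iJ+B-A asked whether the set separated these 2 groups, and no member passed the test. By edgeR's quasi-likelihood test with Benjamini-Hochberg adjustment, 0 of the 7 members were called at an adjusted p of 0.05, and 0 had an unadjusted p under 0.05, while 27.0% of the 16961 genes tested were called, 11.5% as higher and 15.5% as lower. All 7 members had overlapping ranges in the 2 groups, where 26.2% of genes lay wholly higher and 31.0% wholly lower in the mesoderm progenitors.
Gbx2 came nearest, with a log2 fold change of 2.91 ± 1.23 (SE) and an adjusted p of 0.128. Nes followed at 1.70 ± 0.76 (adjusted p = 0.148), then Sox3 at 1.04 ± 0.60 (adjusted p = 0.243) and Zic2 at 1.21 ± 0.74 (adjusted p = 0.269). Otx2 was at -0.87 ± 0.70 (adjusted p = 0.397). The group means behind them were 10.0 ± 13.3 CPM (SD, n = 2) against 1.33 ± 0.73 CPM (SD, n = 3) for Gbx2 and 112 ± 126 CPM against 34.5 ± 8.99 CPM for Nes.
The fold changes depended on which mesoderm library was kept. Without that of day 4, the log2 fold change was 2.09 for Zic2, 2.58 for Nes, 3.91 for Gbx2 and -5.33 for Pax6. Without that of day 3, Otx2 was at -2.58, and the signs of Zic2 (-0.95), Gbx2 (-1.04), Nes (-0.52) and Pax6 (0.74) turned. In each of these fits the lone mesoderm library was assumed to vary like the other groups. The Wald test of DESeq2 called 1 member, Gbx2 as higher (adjusted p = 0.0372), and 32.4% of all genes. The 4584 genes called by edgeR became 2019 without the 2iJ+B-A library of day 5 and 2666 without that of day 11.

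Genes of the fuller formative and neural lists did differ in this comparison. On the formative list, 6 of 15 genes tested were higher in the mesoderm progenitors and 2 lower by the edgeR test, with a median log2 fold change of 1.53 against -0.03 over all genes. The 5 widest were Fgf5 (6.95 ± 1.66, adjusted p = 0.0263), Fgf15 (6.62 ± 1.18, adjusted p = 0.0114), Lef1 (3.25 ± 0.60, adjusted p = 0.0123), Lin28b (2.85 ± 0.25, adjusted p = 0.00187) and Sall2 (2.31 ± 0.28, adjusted p = 0.00407). Foxd3, a forkhead factor, was lower (-7.06 ± 0.54, adjusted p = 0.00144), as was Utf1 (-2.57 ± 0.59, adjusted p = 0.0239). On the neural list 13 of 20 genes were tested, 3 were higher (Fabp7, Zfp521 and Msi1) and 3 lower (Hesx1, Sox21 and Pou3f2), with a median of -0.76. Fabp7, a fatty acid binding protein of radial glia, was at 9.95 and 0.904 CPM in the mesoderm progenitors and at no more than 0.0636 CPM in 2iJ+B-A. Pou3f2, a POU factor close to Pou3f1, was at 0 counts in both mesoderm libraries and at 0.652, 3.34 and 4.59 CPM in 2iJ+B-A on days 2, 5 and 11. Sox2, the SoxB1 factor of mESC and neural cells, was lower (-4.96 ± 0.26, adjusted p = 0.000841), at 21.6 and 13.9 CPM against between 514 and 597 CPM.

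**Figure D4:**
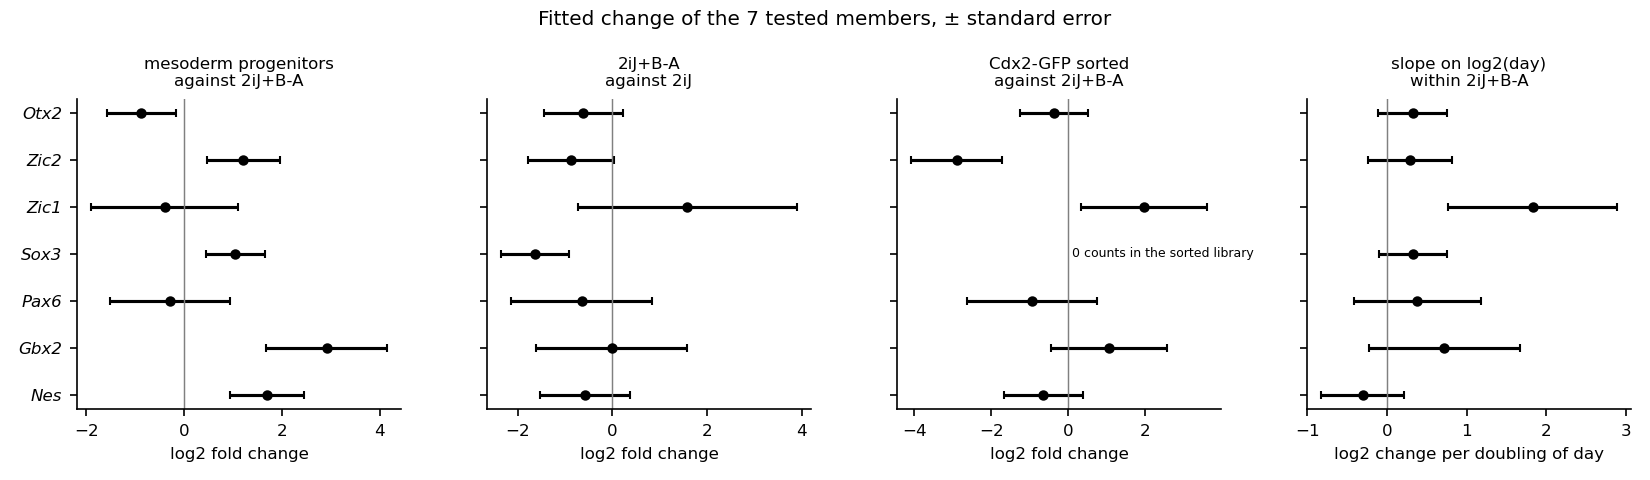
Fitted log2 fold change (points) and standard error (bars) of the 7 tested members in each of the 4 tested comparisons, from the edgeR fit over 8 libraries; the last panel gives the log2 change per doubling of day. None of the 7 passed an adjusted p of 0.05; Gbx2 stood at 2.91 in the first panel and Zic2 at -2.90 in the third, from which Sox3 is left out, since the sorted library had 0 counts.

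The effect of adding BMP4 and the ALK5 inhibitor to 2iJ was tested with 3 libraries against 1. The edgeR test called 0 of the 7 members and 0% of the 16961 genes, and 0 members had an unadjusted p under 0.05, as against 1290 of all genes. DESeq2 called 0 members and 2.08% of genes. Sox3 was nearest to the threshold, with a log2 fold change of -1.62 ± 0.72 (SE, unadjusted p = 0.0618 and adjusted p = 0.684 by edgeR), and Zic2 was at -0.88 ± 0.91. With 2i and 2iJ pooled as the reference, Sox3 was at -1.59 ± 0.54 (adjusted p = 0.188). Against both reference libraries, Zic2 and Sox3 were wholly lower in 2iJ+B-A, 2 of the 7 members, where 17.0% of genes were wholly lower and 26.5% wholly higher. On the formative list edgeR called 0 of 15 genes (3 at an unadjusted p under 0.05) and the median log2 fold change was -0.86, and on the neural list it called 0 of 13 (4 unadjusted) and the median was 1.45, against 0.03 over all genes. DESeq2 called 2 of the formative genes, Dnmt3a and Fgf15, as lower and 1 of the neural genes, Irx3, as higher.

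Over days 2, 5 and 11 of 2iJ+B-A, no member had a slope on the logarithm of day that passed the test. The edgeR fit called 0 of the 7 members and 0% of all genes, with 0 members and 1004 genes at an unadjusted p under 0.05, and DESeq2 called 0 members and 0.841% of genes. Otx2 had a slope of 0.33 ± 0.43 and Zic2 one of 0.29 ± 0.53 (log2 per doubling of day). Nes was the one member with a negative slope, -0.30 ± 0.52. Without the mesoderm progenitors the slopes were close to these (Otx2 0.32 ± 0.12, Zic2 0.28 ± 0.10, Nes -0.31 ± 0.11) with smaller errors, and adjusted p was 0.219, 0.170 and 0.167.

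The addition of the JAK inhibitor to 2i was compared between a single library of each on day 5. Otx2 was 1.35-fold higher in 2iJ (95% interval for counting error 1.26 to 1.44), Zic2 1.45-fold (1.36 to 1.54) and Nes 1.27-fold (1.17 to 1.38). Sox3 at 1.05-fold (0.780 to 1.41) and Gbx2 at 0.861-fold (0.529 to 1.39) had intervals that held 1. Pax6 was 2.89-fold higher (1.74 to 4.96), on 58 counts against 22. It was the single member of the 6 with at least 1 CPM that was at least 2-fold higher, and 0 were at least 2-fold lower, where 2.62% of 13575 genes were higher and 1.04% lower. On the formative list 2 of the 14 genes with at least 1 CPM were at least 2-fold higher and 0 at least 2-fold lower. Among its genes that reached 10 CPM, Grhl2 (8.46 and 17.4 CPM in 2i and 2iJ), Dnmt3b (89.5 and 161 CPM) and Lef1 (15.4 and 24.5 CPM) had the widest ratios.

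The Cdx2-GFP sorted cells had the lowest Zic2 of all libraries and no Sox3 counts. Compared with unsorted 2iJ+B-A of the same day, 1 library each, Zic2 was 5.67-fold lower (95% interval 4.76 to 6.80) and Nes 2.09-fold lower (1.87 to 2.35). Gbx2 was 5.47-fold higher (2.89 to 11.2), on 53 counts against 12, and Otx2 was 1.08-fold lower (0.979 to 1.18), an interval that held 1. Against the floor of 3 counts, Sox3, at 0 counts against 19, was 5.11-fold lower, and Zic1, at 19 counts against 0, was 7.84-fold higher. The lower limits of their 95% intervals for counting error were 3.77-fold and 5.78-fold. Of the 5 members with at least 1 CPM, 2 were at least 2-fold lower and 1 at least 2-fold higher, where 14.4% of 14550 genes were lower and 18.5% higher.
Against all 3 libraries of 2iJ+B-A, edgeR called 0 of the 7 members and 5.42% of genes, 3.34% as higher and 2.08% as lower. The 919 genes behind that share became 91, 37 and 117 without the 2iJ+B-A library of day 2, 5 or 11. Sox3 (adjusted p = 0.0608) and Zic2 (log2 fold change -2.90 ± 1.18, adjusted p = 0.176) had an unadjusted p under 0.05. Whether Sox3 and Zic2 passed depended on which libraries were fitted, as did the number of all genes called. DESeq2 over all libraries called Sox3 (adjusted p = 0.0171) with 17.2% of genes.
Zic5, the neighbour of Zic2, was at 9.29 CPM in the sorted cells and 19.8 CPM in the unsorted cells of day 2. The formative list was split, with 4 of its 13 genes at or above 1 CPM at least 2-fold higher in the sorted cells and 5 at least 2-fold lower. Among the widest ratios were those of Dnmt3b, a DNA methyltransferase, at 550 CPM in the sorted and 83.3 CPM in the unsorted cells, and Grhl2, a grainyhead factor, at 102.3 and 22.1 CPM. Against all 3 libraries edgeR called 1 of the 15 formative genes, Sall2, a zinc finger factor, as lower (-2.23 ± 0.43, adjusted p = 0.0415), and Dnmt3b was at 1.96 ± 0.44 (adjusted p = 0.056). DESeq2 called 1 formative gene, Dnmt3b, as higher and 4 as lower. Sox2 was called by edgeR as lower (-2.29 ± 0.30, adjusted p = 0.0194). On the neural list edgeR called 0 of 13 (4 at an unadjusted p under 0.05), and DESeq2 called 1, Sox21, as higher, at 49.97 CPM in the sorted cells against 7.91, 13.9 and 22.7 CPM. Cdx2, the reporter's gene, was higher (3.54 ± 0.49, adjusted p = 0.0212). The fibroblast list was also higher in the sorted library, where its 6 genes summed to 93.5 CPM against between 7.98 and 15.9 CPM elsewhere. Of the 5 tested, Col1a1 (42.2 CPM) and Col3a1 (12.7 CPM) passed. Line, sorting and the share of unmapped reads cannot be told apart from the group, and the part of the fibroblast genes in these values was not tested.

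Strand bore on Pax6 and Gbx2 alone among the tested members. Over all libraries 90.5% of the counts in Pax6 exons were on the opposite strand (2864 against 302), where the share over all genes was at most 6.47% in any library. Elp4, on the opposite strand, shares 5542 of the 19833 exon bases of Pax6 and was at between 24.3 and 37.4 CPM. For Gbx2 the share was 30.1% (379 against 881), and D130058E05Rik, on the opposite strand, shares 1372 of its 4240 exon bases and had between 2 and 146 counts. Otx2, Zic2, Zic1, Sox3 and Nes had shares between 1.37% and 5.76%. RefSeq places the start of Gbx2 at 91827751, 2114 bases inside the annotated gene.

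**Figure D5:**
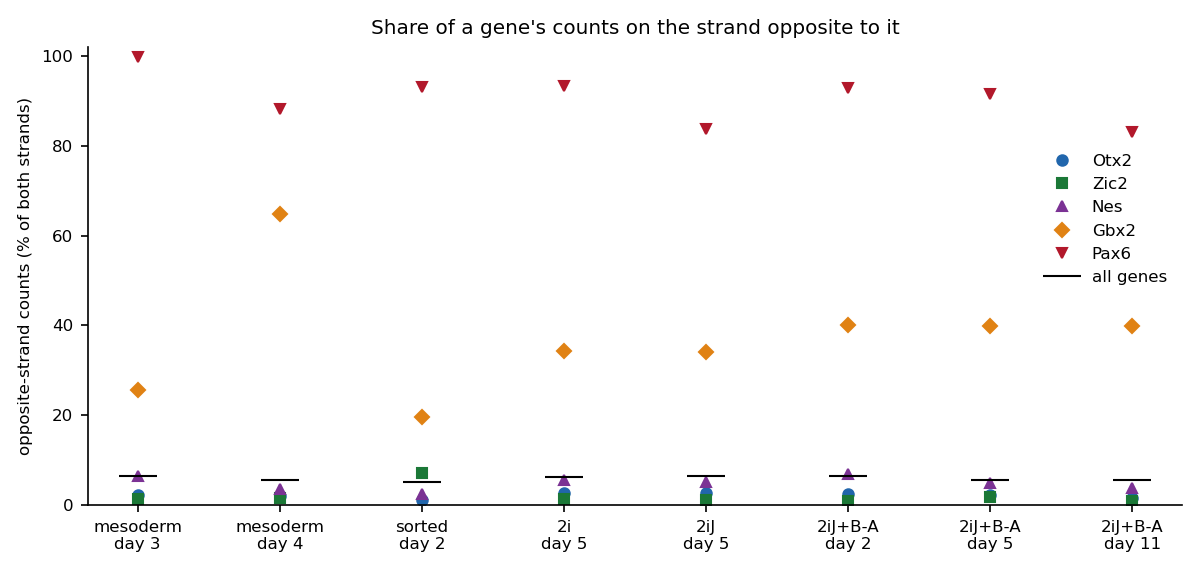
Share of a gene's counts that lay on the strand opposite to it, in percent of the counts of both strands, for 5 members (symbols) and for all genes (bars) in each library. Pax6 was between 83.1% and 99.8% and Gbx2 between 19.7% and 64.8%, while Otx2 stayed at or below 2.76%.

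Among the 11052 other genes that reached 10 CPM, those with a pattern nearest to each abundant member over the 8 libraries were found by the root mean square difference of centred log2 CPM. For Otx2 they were Stx3 (0.35), Ccdc88c (0.35) and Chmp4c (0.35). For Zic2 they were Pcdh19 (0.47), Dab1 (0.51) and Has3 (0.53), and for Nes they were Tspan13 (0.37), Il13ra1 (0.43) and 2010002N04Rik (0.44). For Gbx2 they were Cabp7 (0.51), Igfbp3 (0.55) and Cbr3 (0.62). The members' own standard deviations were 1.01 for Otx2, 1.46 for Zic2, 1.03 for Nes and 1.57 for Gbx2 on the same scale, and for the last 3 of these the mesoderm library of day 3 was the highest.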

How the data were processed

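Poly-A RNA of 8 cultures was sequenced as strand-specific read pairs. The authors trimmed the reads (cutadapt), aligned them to NCBIM37 with STAR 2.4.2a and deposited raw counts per gene for each strand and unstranded; their batch adjustment between 2 days is not in these counts, and the annotation release is not given in the sources used here. Reverse-strand counts were used, as the dUTP chemistry of the kit requires. Symbols, coordinates (1-based) and exon lengths came from GENCODE vM1, and the Sox1 promoter from RefSeq. The 16961 genes that reached 10 counts in 2 or more libraries were fitted over all libraries (edgeR 4.0.16, R 4.3.3) with 5 group terms, TMM scaling, the quasi-likelihood test and a threshold of 0.05 on the Benjamini-Hochberg adjusted p, with DESeq2 1.42.0 as an alternative. Standard errors are the log2 fold change over the root of F. Single libraries were compared by CPM ratio with a 95% exact interval for counting error, as past 2-fold with at least 1 CPM in the higher library. Named genes are the 9 members, the formative and neural list genes that passed (the widest 5 each way; for single libraries the widest 3 among those reaching 10 CPM), and the 3 genes nearest to each member; Sox2, Zic5, Cdx2, the collagens, Fabp7, Pou3f2 and the overlapping genes were added after their values were seen. For 1 further gene, included in the counts of its list, no value is reported here. The members and lists were chosen with earlier results of these data known. Scripts were tested on simulated data, where the edgeR test missed most 2-fold changes. It recovered 8% of 2-fold and 42% of 4-fold changes for the mesoderm progenitors against 2iJ+B-A. For 2iJ+B-A against 2iJ these shares were 0% and 18%, and for the sorted cells 2% and 32%. For the slope, per doubling of day, they were 24% and 68%.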

Additional observations from a re-analysis of the deposited data

Results flagged for a closer look

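Pax6, Gbx2 and Pou3f1 had a share of counts on the opposite strand above the highest share over all genes in any library (6.47%). The comparisons do not use these counts for the members themselves. Pairs of a gene annotated on that strand, such as Elp4 at Pax6, are counted for that gene. Pax6 had 90.5% of its counts on the opposite strand (95% Wilson interval 89.4 to 91.4) and Gbx2 had 30.1% (27.6 to 32.7). Pou3f1 had 89.5% (68.6 to 97.1), on 17 counts against 2. Pou3f1 shares 3003 of its 3004 exon bases with the pseudogene model, and pairs that overlap both go to neither. Its share therefore rests on the few counts left and is not a measure of transcription from either strand. The part of the overlapping genes in these shares was not tested.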

How the results depend on the processing

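With 3 residual degrees of freedom, 1 library per condition and day, and groups that differ in day, a member that was not called may still differ. Of 293 alternatives for single members, 14 brought a member past the threshold and 279 left it uncalled. No member was called by edgeR over all libraries, so none could lose a call. The 279 say nothing of direction, since they include alternatives in which the sign of a member's change turned. For the mesoderm progenitors against 2iJ+B-A, members called went to 1 under DESeq2 and ranged from 0 to 4 when 1 library was left out, and all genes called ranged from 2019 to 4538. For the sorted cells, members called went to 1 without a filter and with DESeq2 and to 2 with only the libraries of the 2 groups, and ranged from 0 to 2 with 1 library left out. All genes called there were 1390 without a filter, 2697 with DESeq2, 1911 with only the 2 groups and 27 when compared at day 2 with a slope, and ranged from 37 to 2052 with 1 library left out. For 2iJ+B-A against 2iJ all genes called were 305 with DESeq2 and 150 with 2i and 2iJ pooled. For the slope they were 2 without a filter, 115 with DESeq2 and 531 without the mesoderm progenitors, and ranged from 0 to 469 with 1 library left out (379 without the mesoderm library of day 3 and 469 without that of day 4). At a 3-fold limit, 0 members were past it between 2iJ and 2i. The cause was not tested. No paired analysis was possible because each condition and day was a single library, and the labels carry no replicate numbers.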
